A study of Mus musculus with 10 samples.

Results

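Integrin subunits were followed in macrophages of the borders of the mouse brain, with 10 genes chosen by symbol among the 53546 genes of the deposited counts. They are Itgam, Itgax and Itgal with their shared beta 2 chain Itgb2, Itga4, Itga5, Itga6 and Itga9 with their shared beta 1 chain Itgb1, and Itgb7. All 10 were listed in the counts, and 9 passed the filter on low counts that left 14023 genes for testing. Itgax did not pass, with 0 counts in every library. The cells were CNS-associated macrophages (CAMs), the macrophages of the meninges and the perivascular spaces, sorted from brain tissue of single untreated C57BL/6N mice aged 6 to 8 weeks. In the Cre-Cre group (4 mice) both copies of Mrc1, the mannose receptor gene, carried Mrc1-CreERT2, in the Cre-pos group (3 mice, numbered 1, 2 and 4) 1 copy did, and the WT group (3 mice) had none. CreERT2 is a Cre recombinase that acts once a ligand such as tamoxifen is given, and none was given here per the labels. The comparisons ask whether carrying the allele alters the transcripts of these macrophages.

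Integrins are surface receptors made of an alpha and a beta chain, and some beta chains accept several alpha chains. The beta 2 integrins are the leukocyte integrins. Itgam (CD11b) with Itgb2 forms complement receptor 3, which binds the complement fragment iC3b and ICAM-1, Itgal (CD11a) with Itgb2 forms LFA-1, a receptor for ICAMs, and Itgax (CD11c) with Itgb2 forms complement receptor 4, widely used as a dendritic cell marker. The beta 1 integrins mostly bind matrix. Itga5 with Itgb1 is the classical fibronectin receptor, Itga6 with Itgb1 is a laminin receptor, Itga4 with Itgb1 binds VCAM-1 and fibronectin, and Itga9 with Itgb1 binds tenascin-C and osteopontin. Itgb7 pairs with Itga4 to bind MAdCAM-1 and with Itgae to bind E-cadherin, and is best known on lymphocytes. In brain macrophages and microglia Itgam is a routine sorting marker.

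The promoters of 3 of the genes are shown because Itgam and Itgax lie on the same chromosome and share a beta chain yet only Itgam had counts, and because Itgb1 was the most abundant of the 10. Each runs from 250 bases before to 50 bases after the annotated gene start, 5′ to 3′, from RefSeq on GRCm38.p6, which listed 7 of the 10 genes. The windows are chr7:128062390-128062689 on the plus strand for Itgam, chr7:128129300-128129599 on the plus strand for Itgax and chr8:128685404-128685703 on the plus strand for Itgb1. Capitals mark GAGGAA, a core of the sites bound by the myeloid factor PU.1, and GGGCGG, the GC box bound by Sp factors, on either strand (TTCCTC and CCGCCC on the other).
Itgam: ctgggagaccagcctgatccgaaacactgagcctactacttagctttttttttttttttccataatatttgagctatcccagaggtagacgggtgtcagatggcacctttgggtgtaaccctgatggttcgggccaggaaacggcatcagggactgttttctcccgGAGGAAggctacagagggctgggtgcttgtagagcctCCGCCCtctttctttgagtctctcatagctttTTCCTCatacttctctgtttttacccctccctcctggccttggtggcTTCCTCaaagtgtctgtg
Itgax: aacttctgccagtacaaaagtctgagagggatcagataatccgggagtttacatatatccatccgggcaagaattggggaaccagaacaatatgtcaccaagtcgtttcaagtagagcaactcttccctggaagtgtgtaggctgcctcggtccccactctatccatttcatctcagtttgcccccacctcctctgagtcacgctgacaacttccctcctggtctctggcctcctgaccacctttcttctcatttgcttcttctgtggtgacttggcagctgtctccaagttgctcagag
Itgb1: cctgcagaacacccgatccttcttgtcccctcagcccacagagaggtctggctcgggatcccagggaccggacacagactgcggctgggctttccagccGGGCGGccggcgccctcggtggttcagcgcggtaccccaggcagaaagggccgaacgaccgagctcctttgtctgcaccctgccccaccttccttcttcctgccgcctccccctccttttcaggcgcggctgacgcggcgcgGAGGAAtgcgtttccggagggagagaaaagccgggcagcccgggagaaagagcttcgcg
Itgam held 3 GAGGAA matches and 1 GGGCGG match, Itgb1 held 1 of each, and Itgax held 0 of each. No match overlapped another. Among 32851 RefSeq promoters of the same length, 28.3% held GAGGAA and 35.7% held GGGCGG on either strand. In the listed windows not shown, Itga4 held 0 GAGGAA and 1 GGGCGG, Itga5 held 1 and 2, Itga9 held 0 and 0, and Itgb7 held 1 and 0. Itga9, with 0 of each, had counts in all 10 libraries. These matches describe letters in the windows only.

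Library totals ran from 22986972 to 36575446 counts. Values are given as counts per 1000000 counts of a library after scaling (CPM), with library factors of 0.977 to 1.03. Replicates of each genotype differed by more than counting noise, and the chi-square per gene was 91.7 to 130 in Cre-Cre pairs, 116 to 141 in Cre-pos pairs and 186 to 213 in WT pairs, the least alike. Mrc1 averaged 489 ± 48.6 CPM in Cre-Cre (SD, n = 4), 2153 ± 153 CPM in Cre-pos (n = 3) and 3481 ± 365 CPM in WT (n = 3), in the order of the genotypes. All 10 markers of these macrophages were detected in every genotype, and their summed level was 19324 to 19636 CPM in Cre-Cre, 16094 to 19011 CPM in Cre-pos and 16811 to 18537 CPM in WT. This sum includes Mrc1 itself, so its fall hides higher levels of other markers. In Cre-Cre against WT only Mrc1 had a log2 fold change below 0, and the median of the 10 was 0.42. The edgeR test described below called Mrc1 lower and Lyve1 higher (adjusted p 0.0215), where 0.0642% of all tested genes were called. Microglia markers summed to 2016 to 3066 CPM in Cre-Cre, 3981 to 5792 CPM in Cre-pos and 3863 to 8915 CPM in WT, with 7 of 7 detected in each genotype, so Cre-Cre lay below both other genotypes. Endothelial markers summed to at most 4.52 CPM, with Cldn5 and Ly6c1 at 0. Neutrophil markers summed to 87.0 to 102 CPM in Cre-Cre, 67.0 to 153 CPM in Cre-pos and 69.5 to 120 CPM in WT, nearly all of it Csf3r at a mean of 97.8 CPM over all libraries, with S100a8, Ly6g and Retnlg at 0. In bulk samples, fewer cells of a type and less RNA per cell cannot be told apart.

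The beta 1 and beta 2 chains were the most abundant of the 10 transcripts once exon length was taken into account, and all alpha chains lay well below them. Levels between genes are compared as CPM per kb of annotated exon. Itgb1 averaged 144 ± 21.1 and Itgb2 116 ± 15.8 CPM per kb over the 10 libraries (SD), with Itgb1 above Itgb2 in 9 of 10 libraries, 1.24 times in the mean. Itgb2 was in turn 4.58 times the next gene, the laminin-binding alpha chain Itga6 at 25.3 ± 7.33 CPM per kb, and their ranges did not overlap. Itgam followed at 18.6 ± 3.10 and Itga9 at 15.8 ± 5.75 CPM per kb. Itga6 exceeded Itgam in 9 of 10 libraries and Itgam exceeded Itga9 in 6 of 10, and the ranges of each pair of neighbours overlapped. The lower chains were Itga4 at 6.80 ± 1.89, Itga5 at 5.40 ± 3.31, Itgal at 4.30 ± 1.51 and Itgb7 at 3.52 ± 2.68 CPM per kb. Itga9 exceeded Itga4 in 9 of 10 libraries, 2.33 times in the mean, while the order among Itga4, Itga5, Itgal and Itgb7 held in only 6 or 7 of 10 libraries at each step. These levels depend on the exon model. Another annotated gene, Gm49368, covers 3450 of the 5024 Itgam exon bases. Dividing all Itgam counts by the remaining 1574 bases gave 59.3 CPM per kb, which would place it above Itga6. That value holds only if no read in the shared bases was counted for Itgam, which is not known here, and reads were not recounted. With the longest transcript of each gene, Itga6 came to 53.1 and Itga4 to 9.74 CPM per kb.

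**Figure D1:**
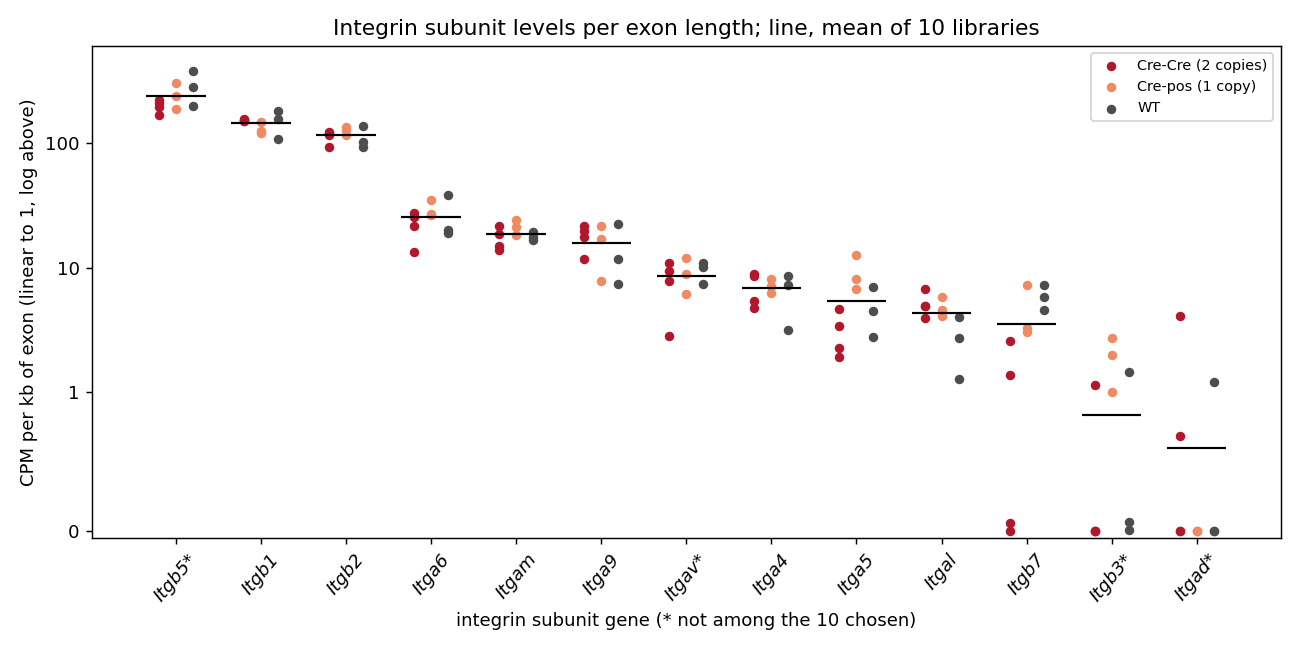
CPM per kb of exon (vertical axis, linear up to 1 and logarithmic above) of the integrin subunit genes with a mean over 0.5, 1 point per library, with Cre-Cre left of Cre-pos and WT within each gene and a line at the mean of 10 libraries. Itgb1 and Itgb2 stand above all alpha chains, and the asterisks mark Itgb5, Itgav, Itgb3 and Itgad, which are not among the 10 chosen genes.

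Among the beta 2 integrins, the shared chain and the CD11b chain were present in every library, the CD11a chain was lower, and the CD11c chain was not seen. Itgb2 had 353, 284, 368 and 374 CPM in the Cre-Cre libraries, 352, 412 and 390.98 CPM in Cre-pos and 283, 310 and 415 CPM in WT. The WT libraries spanned both the lowest and the highest Itgb2 value, and all 3 genotypes overlapped. Itgam had 92.7, 69.2, 107 and 75.5 CPM in Cre-Cre, 122, 91.4 and 106 CPM in Cre-pos and 83.9, 96.5 and 88.7 CPM in WT. The genotypes overlapped again, with WT the tightest. Itgal had 43.9, 25.7, 32.4 and 32.2 CPM in Cre-Cre, 30.2, 27.1 and 38.0 CPM in Cre-pos and 26.6, 17.9 and 8.41 CPM in WT. All 3 Cre-pos libraries and 3 of 4 Cre-Cre libraries lay above the highest WT library, and the third WT library was the lowest of the 10. Itgax had 0 counts in all 10 libraries. A count of 0 allows up to 3 counts, or 0.00956 CPM over the 313769272 counts of all libraries and 0.0820 to 0.131 CPM in a single one. Such limits cover counting error only, since amplified reads without molecular identifiers can repeat a molecule. Dendritic cell markers summed to 74.8 to 226 CPM in Cre-Cre, 139 to 189 CPM in Cre-pos and 114 to 143 CPM in WT. Nearly all of it was Cd209a and Zbtb46, with means of 106 and 37.9 CPM over all libraries. Each genotype had some count for 5 of 7, but Flt3, Xcr1, Clec9a, Ccr7 and Dpp4 averaged only 0.0654 to 1.11 CPM over all libraries.

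The beta 1 chain was the steadiest of the matrix-binding group, while its alpha partners scattered between mice. Itgb1 had 611, 619, 639 and 615 CPM in Cre-Cre, 510, 487 and 606 CPM in Cre-pos and 439, 633 and 734 CPM in WT. The 4 Cre-Cre libraries lay closer together than those of either other genotype, and the lowest of them lay just above the highest Cre-pos library. Itga6 had 121, 196, 230 and 246 CPM in Cre-Cre, 244, 240 and 314 CPM in Cre-pos and 171, 182 and 344 CPM in WT. Its lowest value came from the first Cre-Cre library and its highest from the third WT library. Itga9 had 136, 150, 90.2 and 166 CPM in Cre-Cre, 131, 59.7 and 167 CPM in Cre-pos and 90.7, 56.6 and 171 CPM in WT, and Itga4 had 120, 124, 75.8 and 66.0 CPM in Cre-Cre, 100, 113 and 88.0 CPM in Cre-pos and 101, 44.0 and 119 CPM in WT. The genotypes overlapped for both chains, and the Cre-pos libraries of Itga4 lay within the ranges of Cre-Cre and of WT. Itga5 had 22.8, 9.43, 16.9 and 11.2 CPM in Cre-Cre, 62.6, 33.3 and 40.0 CPM in Cre-pos and 22.0, 34.3 and 13.7 CPM in WT. The fibronectin receptor chain was thus higher in every Cre-pos library than in any Cre-Cre library, with WT between and overlapping both.

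The beta 7 chain was lowest in Cre-Cre. Per kb it averaged 0.997 ± 1.22 CPM in Cre-Cre (SD, n = 4), 4.55 ± 2.38 CPM in Cre-pos (n = 3) and 5.87 ± 1.37 CPM in WT (n = 3). Its mean was the lowest of the 9 tested genes in Cre-Cre and Cre-pos, but in WT it lay above Itga5 (4.73 ± 2.10) and Itgal (2.68 ± 1.38). Itgb7 had 3.78, 0, 7.11 and 0.151 CPM in Cre-Cre, 9.14, 20.2 and 8.46 CPM in Cre-pos and 20.1, 12.5 and 16.1 CPM in WT. The Cre-Cre values rest on 104, 0, 243 and 5 counts, and all 4 lay below every library of the other genotypes. Monocytes and lymphocytes also use Itgb7, and monocyte markers were lowest in Cre-Cre as well. Monocyte markers summed to 5.72 to 17.5 CPM in Cre-Cre, 49.1 to 68.0 CPM in Cre-pos and 75.7 to 200 CPM in WT, with 4, 4 and 6 of 7 detected and Chil3 at 0. B cell markers summed to 265 to 433 CPM in Cre-Cre, 350 to 475 CPM in Cre-pos and 466 to 761 CPM in WT, with 5, 3 and 6 of 6 detected, and Ighm the most abundant. T and NK cell markers summed to 9.95 to 17.6 CPM in Cre-Cre, 26.4 to 41.5 CPM in Cre-pos and 0.979 to 65.4 CPM in WT, with 7 of 8 detected in each genotype. The monocyte sums did not overlap between genotypes, the B cell sums of Cre-Cre lay below those of WT, and the T and NK cell sums of WT spanned the other genotypes. Their part in the Itgb7 values was not tested.

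**Figure D2:**
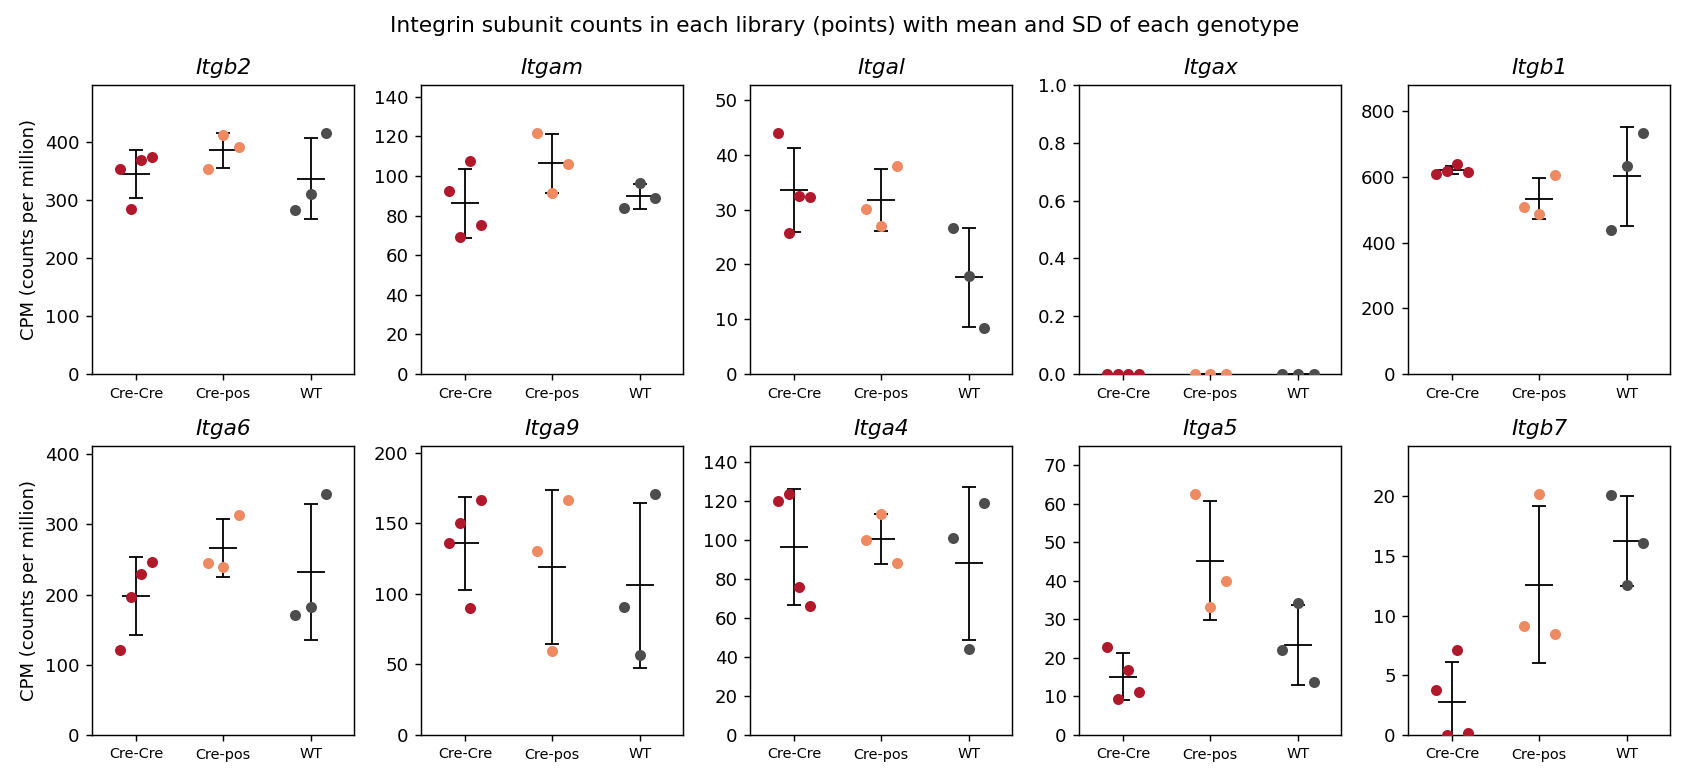
CPM (vertical axis, from 0, a separate scale per gene) of the 10 integrin genes in each library, with Cre-Cre, Cre-pos and WT from left to right; points are libraries and the bars give the mean and SD. Itgax sits at 0 throughout, Itga5 is higher in Cre-pos than in Cre-Cre in every library, and the 4 Cre-Cre points of Itgb7 lie below all others.

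Between homozygous and wild-type mice, no integrin subunit passed the test. In edgeR's quasi-likelihood test, with p adjusted over all genes after Benjamini and Hochberg, 0 of the 9 tested subunits were called (adjusted p of 0.653 to 0.999), where 0.0642% of all tested genes were. At an unadjusted p under 0.05 there was 1 of 9, against 7.52% of all genes, and DESeq2 and limma-voom also called 0 of 9, where they called 2.10% and 0.0713% of all genes. Both beta chains were close to even. Itgb2 averaged 345 ± 41.5 CPM in Cre-Cre (SD, n = 4) and 336 ± 69.6 CPM in WT (n = 3), a fold of 1.03 with a 95% interval of 0.814 to 1.30. Itgb1 averaged 621 ± 12.5 CPM in Cre-Cre and 602 ± 150 CPM in WT, a fold of 1.03 with an interval of 0.811 to 1.31. Both intervals include 1, and the differences were smaller than the spread between WT mice. Itgam, the CD11b chain, averaged 86.2 ± 17.3 CPM in Cre-Cre and 89.7 ± 6.35 CPM in WT, a fold of 0.961 with an interval of 0.723 to 1.28. The LFA-1 chain Itgal averaged 33.6 ± 7.59 CPM in Cre-Cre and 17.6 ± 9.09 CPM in WT, with a log2 fold change of 0.93 (SE 0.39). Its unadjusted p was 0.0368, and its adjusted p was 0.653 by edgeR. The groups overlapped by a single Cre-Cre library.

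The matrix-binding alpha chains had wider intervals in the same comparison. Their log2 fold changes were 0.13 for Itga4, -0.63 for Itga5, -0.23 for Itga6 and 0.36 for Itga9, with SEs of 0.34, 0.42, 0.29 and 0.42. Itga5, the fibronectin receptor chain, averaged 15.1 ± 6.05 CPM in Cre-Cre and 23.4 ± 10.4 CPM in WT, and Itga6, the laminin receptor chain, 198 ± 55.8 CPM in Cre-Cre and 232 ± 96.7 CPM in WT. Itga9 averaged 136 ± 32.8 CPM in Cre-Cre and 106 ± 58.7 CPM in WT, and Itga4 96.4 ± 29.7 CPM in Cre-Cre and 88.1 ± 39.3 CPM in WT. None of these differences exceeded the spread between mice. Itgb7 averaged 2.76 ± 3.39 CPM in Cre-Cre and 16.3 ± 3.79 CPM in WT, with a log2 fold change of -2.56 (95% interval -5.72 to 0.61) and an adjusted p of 0.762 by edgeR. It was the only one of the 9 (11.1%) whose groups did not overlap, where 7.97% of all tested genes did not, so the share was near the background.

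Between heterozygous and wild-type mice, again 0 of the 9 subunits were called in the edgeR test (adjusted p of 0.791 to 1), where 0% of all genes were. At an unadjusted p under 0.05 there were 0 of 9, against 5.82% of all genes, and DESeq2 and limma-voom called 0 of 9, where they called 1.68% and 0% of all genes. Itgal was the 1 gene of 9 without overlap, higher in Cre-pos, where 9.60% of all genes did not overlap. It averaged 31.8 ± 5.63 CPM in Cre-pos (SD, n = 3) and 17.6 ± 9.09 CPM in WT (n = 3), a log2 fold change of 0.85 (SE 0.41). Itga5 averaged 45.3 ± 15.4 CPM in Cre-pos and 23.4 ± 10.4 CPM in WT, a log2 fold change of 0.95 (SE 0.45), with 1 WT library inside the Cre-pos range. The adjusted p by edgeR was 0.791 for both. The other subunits lay closer to even. The beta chain folds were 1.15 for Itgb2 (95% interval 0.894 to 1.47) and 0.888 for Itgb1 (0.687 to 1.15), and the fold of Itgam was 1.19 (0.874 to 1.61). Log2 fold changes were 0.19 for Itga4, 0.20 for Itga6, 0.17 for Itga9 and -0.37 for Itgb7, the last with an SE of 1.49.

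Between homozygous and heterozygous mice, the fibronectin receptor chain Itga5 stood apart from the other subunits, but did not pass the test over all genes. It averaged 15.1 ± 6.05 CPM in Cre-Cre (SD, n = 4) and 45.3 ± 15.4 CPM in Cre-pos (n = 3), with a log2 fold change of -1.59 (95% interval -2.52 to -0.65). In the edgeR test p was 0.00358 unadjusted and 0.985 adjusted, and DESeq2 gave an adjusted p of 0.0647. No subunit was called, 0 of 9 by edgeR with adjusted p of 0.985 to 1, where 0.0214% of all genes were, and 0 of 9 by DESeq2 and limma-voom, which called 0.877% and 0.0143% of all genes. At an unadjusted p under 0.05 there was 1 of 9, against 4.86% of all genes. For 3 of 9 subunits (33.3%) the groups did not overlap, where 7.47% of all tested genes did not, and these were Itgb1, higher in Cre-Cre, with Itga5 and Itgb7, lower in Cre-Cre. Itgb1 averaged 621 ± 12.5 CPM in Cre-Cre and 534 ± 63.0 CPM in Cre-pos, a fold of 1.16 (95% interval 0.913 to 1.48). Itgb7 averaged 2.76 ± 3.39 CPM in Cre-Cre and 12.6 ± 6.59 CPM in Cre-pos, a log2 fold change of -2.19 (SE 1.41). The beta 2 group showed no separation. Log2 fold changes were -0.16 for Itgb2, -0.30 for Itgam and 0.08 for Itgal, and those of the remaining matrix chains were -0.06 for Itga4, -0.42 for Itga6 and 0.19 for Itga9. The Cre-Cre libraries enter this comparison and the one with wild type, so the values are not independent of each other.

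**Figure D3:**
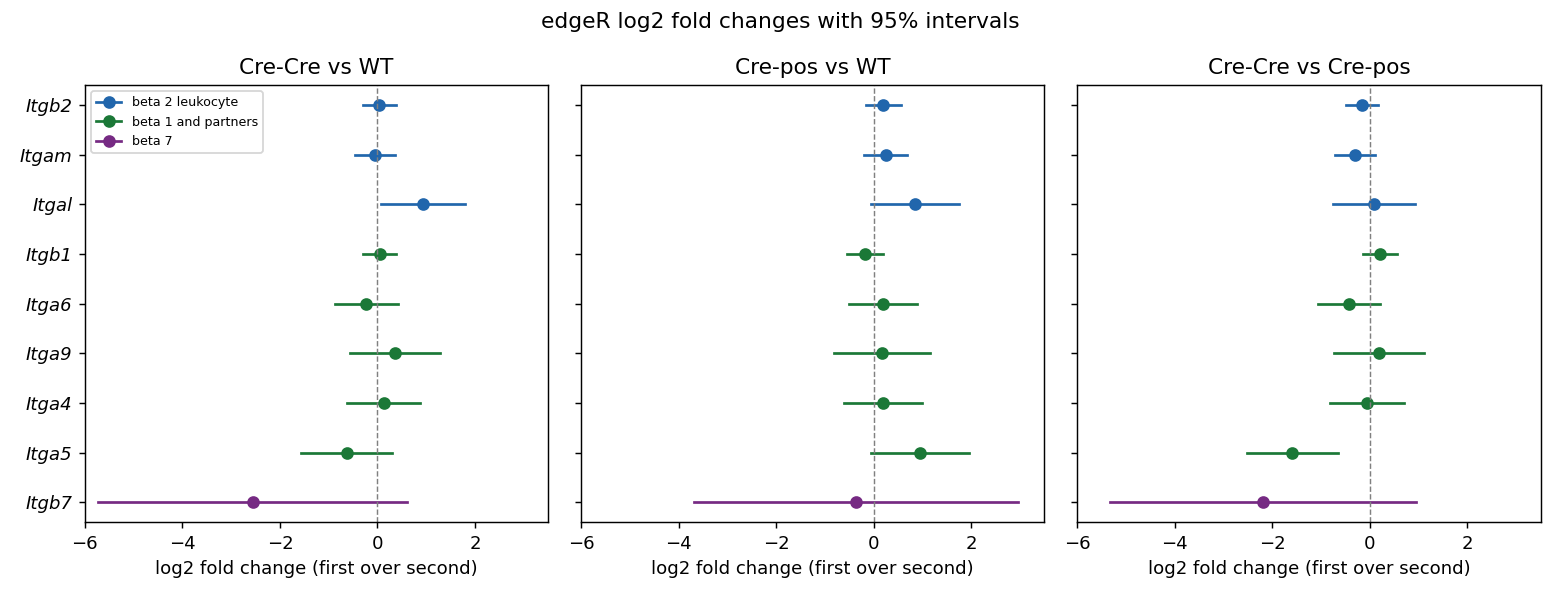
Log2 fold change (horizontal axis, first genotype over second) of the 9 tested integrin genes in the 3 comparisons; points are edgeR estimates and bars their 95% intervals, coloured by beta chain. The intervals of Itgb2, Itgb1 and Itgam are narrow and include 0 in all 3 panels, those of Itgb7 are the widest, and Itga5 lies left of 0 between Cre-Cre and Cre-pos at -1.59.

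Set against each other, the beta 2 chain had on average 0.555 ± 0.0660 counts per beta 1 count in homozygous (SD, n = 4), 0.727 ± 0.104 in heterozygous (n = 3) and 0.566 ± 0.0775 in wild-type mice (n = 3), and no difference passed after adjustment. The ratio of Itgb2 to Itgb1 counts, which needs no scaling between libraries, was 0.579, 0.459, 0.576 and 0.608 in Cre-Cre, 0.691, 0.844 and 0.645 in Cre-pos and 0.645, 0.490 and 0.565 in WT. The 3 Cre-pos ratios were the highest of the 10, although the lowest of them and the highest WT ratio were nearly equal. On the log2 scale Cre-Cre minus Cre-pos was -0.39, with an exact two-sided permutation p of 0.0286, the smallest that 35 splits of 4 against 3 can give, and 0.0857 after adjustment over the 3 pairs. Cre-pos minus WT was 0.36, with an exact permutation p of 0.1, the smallest that 20 splits allow, and 0.15 after adjustment. Cre-Cre minus WT was -0.03 with an exact permutation p of 0.857. Per kb of exon the ratio was 0.614 to 1.13, and it exceeded 1 only in the second Cre-pos library.

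The alpha chains measured here made up a smaller amount than their beta chain in both groups. Itgal, Itgam and Itgax together came to 16.3 to 21.8% of Itgb2 per kb in Cre-Cre, 16.6 to 25.0% in Cre-pos and 13.9 to 22.4% in WT, so the genotypes overlapped. With all Itgam counts divided by only the exon bases that no other gene covers, the mean over all libraries was 55.3% in place of 19.9%. Itga4, Itga5, Itga6 and Itga9 together came to 32.6 ± 3.76% of Itgb1 in Cre-Cre (29.4 to 37.1%), 46.7 ± 5.08% in Cre-pos (41.2 to 51.1%) and 34.5 ± 8.88% in WT (24.3 to 39.8%). The Cre-pos libraries lay above all others in this share, in which both a higher alpha sum and a lower Itgb1 level enter. The beta 1 share also depends on the exon model and was not recomputed with another. With the longest transcript of each gene, means over all libraries were 53.1 (Itga6), 17.4 (Itga9), 9.74 (Itga4) and 6.03 (Itga5) CPM per kb. Itgb1 came to 154 CPM per kb in that model. Over the tested genes of each group, the median log2 fold change was 0.04 for beta 2 and 0.04 for beta 1 in Cre-Cre against WT, 0.25 and 0.19 in Cre-pos against WT, and -0.16 and -0.06 in Cre-Cre against Cre-pos, where the medians of all tested genes were 0.02, 0.01 and 0.01. These medians leave out Itgax.

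**Figure D4:**
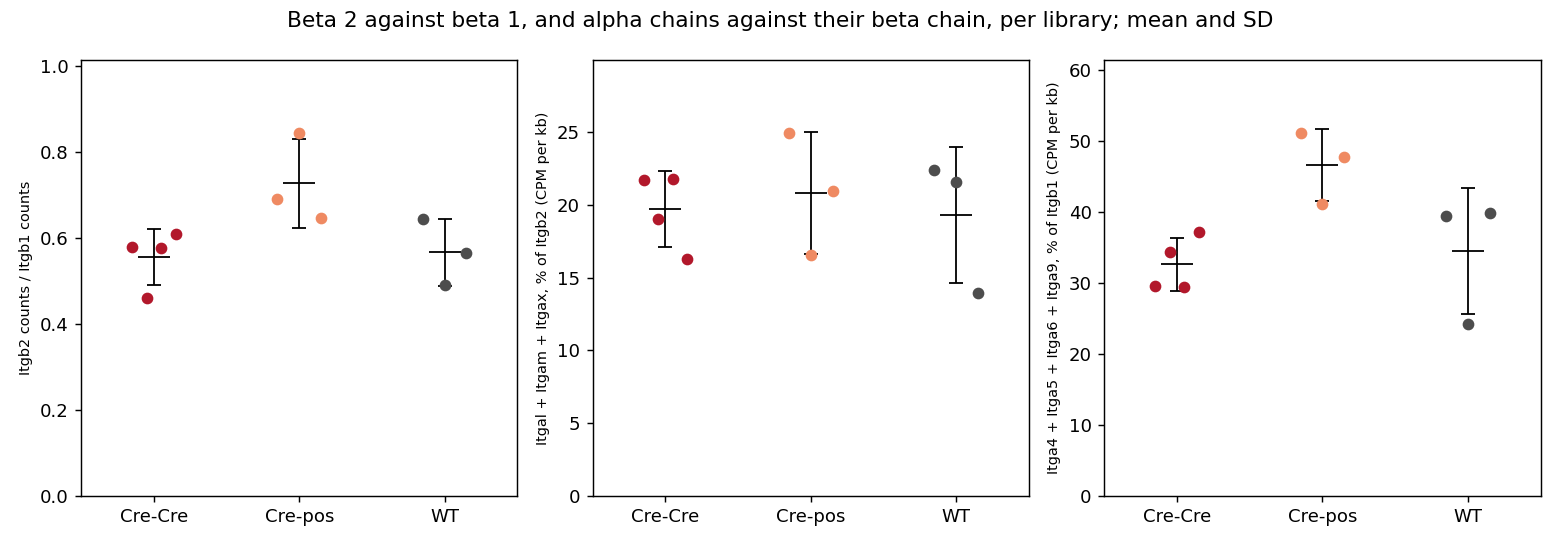
Ratio of Itgb2 to Itgb1 counts (left) and the summed alpha chains as a percentage of Itgb2 (middle) and of Itgb1 (right), per kb of exon, with vertical axes from 0 and Cre-Cre, Cre-pos and WT from left to right; points are libraries and bars the mean and SD. The Cre-pos points are the highest in the left panel (0.645 to 0.844) and in the right panel (41.2 to 51.1%), and the middle panel shows no separation.

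Itgb2 and Itgb1 varied between libraries about as much as other genes of their level, and the beta 1 alpha chains varied more. The coefficient of variation over the 10 libraries was 13.6% for Itgb2 and 14.6% for Itgb1, against medians of 14.96% and 13.2% for genes within 0.5 of their log2 mean level. Itgam had 16.7% against 22.9%, and 80.9% of genes of its level varied more. Itga6 had 28.9% against 16.6%, Itga9 36.3% against 20.6% and Itga5 61.4% against 38.4%. Only 6.09%, 5.57% and 7.48% of the genes of a like level varied more than these 3 chains. Itga4 had 27.8% against 22.7%, Itgal 35.2% against 37.7% and Itgb7 76.1% against 60.1%. The coefficients include differences between genotypes as well as between mice of a genotype, and these are descriptions with no test.

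Of all 26 integrin subunit genes considered, 21 had a count and 14 were tested, and the most abundant was a subunit outside the chosen 10. Itgb5, the beta chain that pairs with Itgav to bind vitronectin and that microglia also express, averaged 237 CPM per kb over the 10 libraries, above Itgb1. It averaged 705 ± 83.1 CPM in Cre-Cre (SD, n = 4), 859 ± 205 CPM in Cre-pos (n = 3) and 1013 ± 316 CPM in WT (n = 3). For Cre-Cre against WT the log2 fold change was -0.52 (SE 0.22) with an adjusted p of 0.653 by edgeR, and the groups overlapped. Microglia markers were lower in Cre-Cre too, at the sums given above, and their part in this difference was not tested. Its partner Itgav averaged 82.9 CPM in Cre-Cre, 96.6 CPM in Cre-pos and 101 CPM in WT. Of the 16 other subunits, 5 were tested and 0 were called by edgeR in any comparison, with 1 (Itgb5) at an unadjusted p under 0.05 and 0 called by limma-voom, while DESeq2 called Itgad alone, in Cre-pos against WT and in Cre-Cre against Cre-pos. Itgad, another beta 2 partner, had counts in only 3 libraries, with 672 of its 931 counts in the second Cre-Cre library.

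Genes that switch integrins on and off were expressed and did not pass the test either. Of 13 activators 12 were tested, of 6 inactivators 5, and of 22 adhesion signalling genes 19, and edgeR, DESeq2 and limma-voom called 0 of each list in all 3 comparisons. At an unadjusted p under 0.05 by edgeR there were 2 of 12 activators, 2 of 5 inactivators and 1 of 19 signalling genes in Cre-Cre against WT. There was 1 activator in Cre-pos against WT and 1 signalling gene in Cre-Cre against Cre-pos. The shares of all tested genes were 7.52%, 5.82% and 4.86% in the 3 comparisons. The 2 activators were Fermt3 and Fermt2, and Fermt2 had only 116 counts in all and 0 CPM in WT. Median log2 fold changes of the lists lay between -0.12 and 0.13 across the comparisons, near the medians of all genes. The nearest to a change among the activators was Fermt3 (kindlin-3), which binds the tails of beta chains in blood cells. It had 444, 367, 341 and 311 CPM in Cre-Cre, 352, 349 and 375 CPM in Cre-pos and 301, 248 and 261 CPM in WT, so every library with the allele lay above every WT library. Its log2 fold change was 0.44 (SE 0.13, adjusted p 0.509 by edgeR) in Cre-Cre against WT and 0.41 (SE 0.14, adjusted p 0.791) in Cre-pos against WT. The small GTPase Rap1b averaged 934 CPM over the 10 libraries, the adaptor Fyb 258 CPM and talin-1 (Tln1), which couples integrins to actin, 202 CPM, and their log2 fold changes ran from -0.15 to 0.17 over the 3 comparisons. Among the inactivators, Sipa1, which turns Rap1 off, averaged 177 CPM in Cre-Cre and 118 CPM in WT (log2 fold change 0.59, adjusted p 0.654 by edgeR). Dok1, which competes with talin, averaged 35.4 CPM in Cre-Cre and 54.2 CPM in WT (-0.62, adjusted p 0.653). Filamin A (Flna) and Itgb1bp1 had log2 fold changes from -0.20 to 0.05 over the 3 comparisons. In adhesion signalling the Src family kinase Lyn averaged 535 CPM over all libraries, the exchange factor Vav1 369 CPM and the adaptor paxillin (Pxn) 150 CPM, with log2 fold changes from -0.12 to 0.19 over the 3 comparisons.

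The ligand gene with the clearest pattern was F11r, which encodes JAM-A, a junctional protein known in human cells to bind LFA-1. It had 24.1, 71.6, 76.9 and 84.0 CPM in Cre-Cre, 202, 134 and 173 CPM in Cre-pos and 219, 205 and 353 CPM in WT. The 3 genotypes did not overlap, with Cre-Cre lowest and WT highest. The log2 fold change was -2.01 (SE 0.38) in Cre-Cre against WT, -0.61 in Cre-pos against WT and -1.40 (SE 0.37) in Cre-Cre against Cre-pos, with adjusted p of 0.165, 0.916 and 0.985 by edgeR. DESeq2 gave adjusted p of 6.2e-06 for Cre-Cre against WT and 0.017 for Cre-Cre against Cre-pos, and so called it in both. F11r is also made by microglia and platelets, and microglia markers were lower in Cre-Cre. Platelet markers summed to 1.78 to 4.33 CPM in Cre-Cre, 2.68 to 12.6 CPM in Cre-pos and 0 to 25.4 CPM in WT, with Gp1bb, Gp6 and Treml1 at 0. The part of either in the F11r values was not tested. Of 11 beta 2 ligand genes 5 were tested, with median log2 fold changes of -0.56, -0.21 and -0.41 in the 3 comparisons. In both comparisons of Cre-Cre the median was the value of Thy1, which averaged only 0.845 CPM over all libraries and had an SE of 1.76. EdgeR and limma-voom called 0, with F11r alone at an unadjusted p under 0.05 in both comparisons of Cre-Cre. Icam1, the main ligand of LFA-1, averaged 67.9 CPM in Cre-Cre, 77.5 CPM in Cre-pos and 89.5 CPM in WT, and C3, the source of iC3b, 19.7 CPM in Cre-Cre, 31.9 CPM in Cre-pos and 35.4 CPM in WT (adjusted p 0.999 and 0.691 by edgeR in Cre-Cre against WT). Icam2 averaged 2.45 CPM over all libraries.

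Of 15 ligand genes of the beta 1 and beta 7 integrins, 6 were tested, and edgeR, DESeq2 and limma-voom called 0, with 1 at an unadjusted p under 0.05 (Adam15, Cre-Cre against WT). Vcam1, a ligand of Itga4 with Itgb1, averaged 757 CPM in Cre-Cre, 662 CPM in Cre-pos and 666 CPM in WT, so transcripts of both the receptor chains and a ligand were present in these libraries. Adam15, a disintegrin-type ligand, averaged 337 CPM in Cre-Cre, 280 CPM in Cre-pos and 257 CPM in WT. Osteopontin (Spp1) averaged 12.3 CPM in Cre-Cre, 32.1 CPM in Cre-pos and 45.0 CPM in WT, with a log2 fold change of -1.88 (SE 1.38) in Cre-Cre against WT, and the matrix protein gene Emilin1, a ligand of Itga4 and Itga9, averaged 13.9 CPM over all libraries. The median log2 fold changes of the list were -0.74, -0.03 and -0.32 in the 3 comparisons. The first lay midway between Lamb2 (-0.88, SE 1.67) and Lamc1 (-0.59, SE 1.47), which averaged 12.7 and 7.80 CPM over all libraries.

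**Figure D5:**
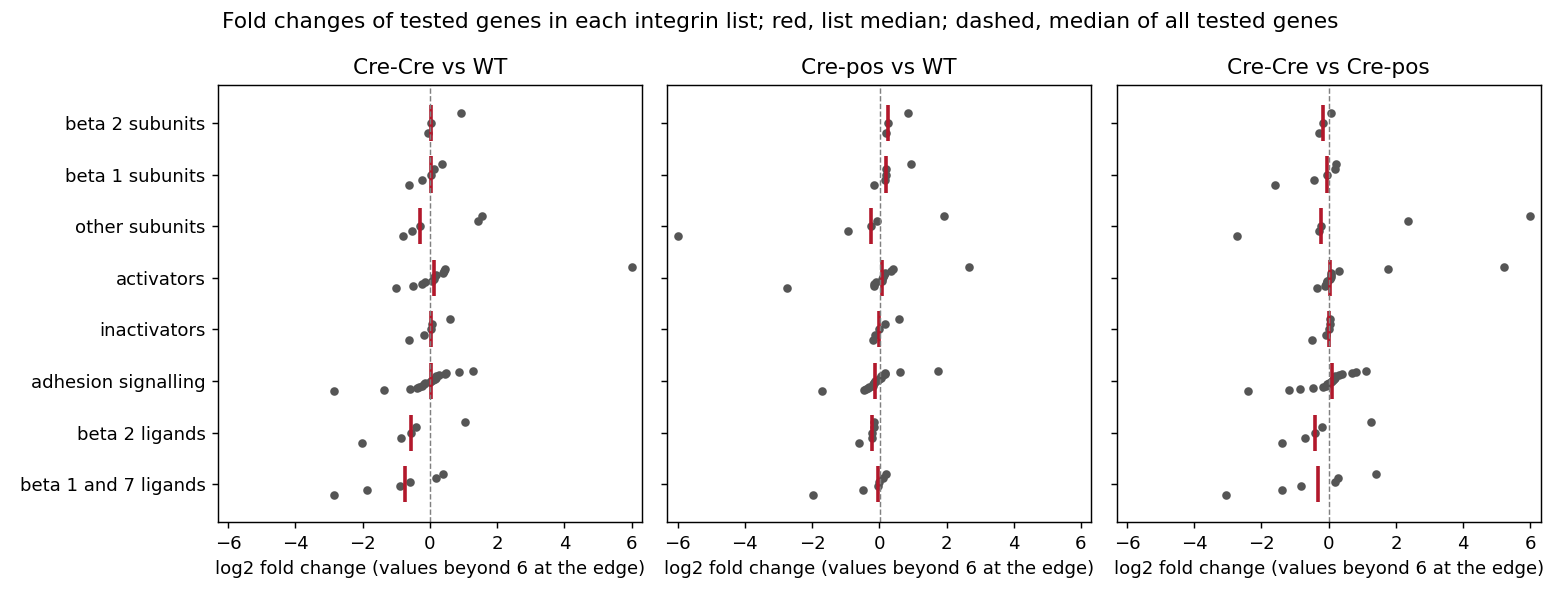
Log2 fold change (horizontal axis, first genotype over second, values beyond 6 drawn at the edge) of the tested genes of each integrin list in the 3 comparisons; points are genes, red lines list medians and the dashed line the median of all tested genes. The medians of the activator, inactivator and signalling lists lie between -0.12 and 0.13, and in Cre-Cre against WT those of the beta 1 and 7 ligands (-0.74), the beta 2 ligands (-0.56) and the other subunits (-0.29) lie left of the dashed line. Both ligand medians there rest on genes of low level (Lamb2, Lamc1 and Thy1) with SEs of 1.47 to 1.76.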

How the data were processed

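RNA of sorted macrophages was sequenced from 10 mice, 1 library per mouse. Per the labels' protocols, cDNA was made from 500 pg of total RNA with SMARTer Ultra Low Input v4 and tagged with Nextera XT, neither of which keeps the strand, and all libraries share 1 batch label. The authors deposited whole-number read counts per gene symbol. The submitters' processing notes name STAR 2.7.8a, featureCounts 2.0.2 and bcl2fastq 2.20. Build, annotation, strand setting and sort gate were not given in the sources used here. Reads of overlapping genes therefore cannot be told apart.

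The filter was filterByExpr with genotype as group, a minimum count of 10 and a minimum total of 15, and it kept 99.9% of all counts, and libraries were scaled by trimmed mean of M values. Genotypes were compared with the quasi-likelihood test of edgeR 4.0.16 in R 4.3.3 with robust dispersions, all 10 libraries and genotype as the only term, adjusted over all tested genes by the Benjamini-Hochberg method and called at an adjusted p under 0.05. Each SE is the absolute log2 fold change over the root of F. The ratio of Itgb2 to Itgb1 counts was tested by exact two-sided permutation of libraries. Exon lengths came from GENCODE vM21 and may differ from the annotation counted. The test was checked on simulated counts.

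The members and gene lists were chosen with earlier results of these data known. All 10 subunits are named, with the 4 genes of highest mean CPM in each list (1 of them is not reported here) and the 5 genes closest to Itgb2 and to Itgb1. The subunits with counts in few libraries, and Thy1, Lamb2, Lamc1 and Fermt2, were named after their values were seen. Alternatives were DESeq2's size factors, no filter, a stricter filter (mean count 10 and at least 3 libraries at 1 CPM), limma-voom (limma 3.58.1), DESeq2 1.42.0, no robust estimation, the title letter as covariate, the replicate number as block, a fit on 2 genotypes at a time, and leaving out every library in turn. The level of Itgam with all its counts divided by exon bases of no other gene was added after seeing the data.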

Additional observations from a re-analysis of the deposited data

How the results depend on the processing

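In 19 alternatives, 0 of 9 subunits were called in any comparison, with a lowest adjusted p of 0.0647 (DESeq2, Itga5, Cre-Cre against Cre-pos). Of 513 alternative values, 493 kept their direction and their side of the threshold and 20 fold changes changed sign, among them Itgb7 in Cre-pos against WT. These counts do not include the exon models. Across 8 same-numbered pairs the correlation of deviations was -0.01 to 0.03, within the range of -0.047 to 0.048 of the other pairs. Of 10 libraries, 5 correlated best with their own number. Whether the replicate numbers pair the libraries was not tested. With the replicate number as a block, Itgb7 in Cre-pos against WT was 0.99 in place of -0.37 and in Cre-Cre against Cre-pos -4.26 in place of -2.19. By limma-voom Itgb7 was -5.04 in place of -2.56 in Cre-Cre against WT (adjusted p 0.312) and -4.66 in Cre-Cre against Cre-pos. With a library left out, Itgb7 ran from -3.63 to -2.14 in Cre-Cre against WT, Itga5 from -0.90 to -0.24 in Cre-Cre against WT, 0.64 to 1.33 in Cre-pos against WT and -1.85 to -1.27 in Cre-Cre against Cre-pos, and Itgal from 0.59 to 1.36 in Cre-Cre against WT and 0.51 to 1.27 in Cre-pos against WT. The log2 fold changes that changed sign with a library left out ran, in Cre-Cre against WT, from -0.18 to 0.034 for Itgam, -0.065 to 0.22 for Itgb2, -0.13 to 0.21 for Itgb1, -0.19 to 0.41 for Itga4 and -0.40 to 0.17 for Itga6. In Cre-pos against WT they ran from -0.14 to 0.47 for Itga4 and -0.16 to 0.69 for Itga9, and in Cre-Cre against Cre-pos from -0.071 to 0.24 for Itgal, -0.20 to 0.085 for Itga4 and -0.13 to 0.52 for Itga9. The log2 difference of the Itgb2 to Itgb1 ratio ran from -0.13 to 0.071 in Cre-Cre against WT, -0.47 to -0.27 in Cre-Cre against Cre-pos and 0.25 to 0.46 in Cre-pos against WT. The cause was not tested. Over all genes, edgeR called 9, 0 and 3 in Cre-Cre against WT, Cre-pos against WT and Cre-Cre against Cre-pos, and DESeq2 called 294, 236 and 123. In Cre-Cre against WT the count was 17 with the title letter, 1 with the block, 2 with only the 2 genotypes and 2 to 12 with a library left out. In Cre-Cre against Cre-pos it was 1 with the title letter, the block, no robust estimation or only the 2 genotypes, 2 with limma-voom and 1 or 2 with a library left out. With 3 or 4 mice per genotype, the SE (log2) in Cre-Cre against WT had a median of 0.179 over genes above 100 CPM. Over all tested genes its median was 0.614. Small changes were therefore not detectable. For Itgal, Itga5 and Itgb7, with SEs of 0.39, 0.42 and 1.42, larger changes could also be missed.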

Other observations

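Most other integrin alpha and beta chains appeared in few libraries. Itga2b, the platelet integrin chain, had 463 counts, of which 441 came from the third WT library. Itga8 had 286 counts in 2 libraries, 207 of them in the second Cre-pos library. Itga1, a collagen-binding chain, had 106 counts, all in that same Cre-pos library. Itgae, the partner of Itgb7, had 118 counts in 4 libraries. Itgb3, the partner of Itga2b and Itgav, had 1475 counts in 7 libraries, and Itgb4, a laminin-binding chain of epithelia, 187 counts in 7. Itga2, Itga7, Itga11 and Itgb6 had 0 counts in all 10 libraries.

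The patterns of the beta chains over the 10 libraries were set beside those of 6442 other genes with a mean of at least 20 CPM, by the root-mean-square difference of centred log2 CPM. The genes nearest to Itgb2 were Bfar, Bin1, Taldo1, Tmbim4 and Serf2, at 0.105 to 0.114, where the median gene was at 0.43. The genes nearest to Itgb1 were Mef2a, Ctsc, Tspan31, Ncstn and Hnrnpc, at 0.0820 to 0.104, where the median gene was at 0.44. The chains themselves were 0.236 apart, and 507 genes lay nearer to Itgb2 than Itgb1 did. Among the 8 tested subunits with a mean of at least 20 CPM, which leaves out Itgb7, the closest pair was Itgb2 with Itgb1 and the farthest was Itga5 with Itga9, at 1.16. All points share the same 10 libraries, and these values are a description.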
